A study of Mus musculus with 18 samples.

Results

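The vascular endothelial growth factor (VEGF) and angiopoietin genes were followed in mouse liver as 10 genes chosen by name: the VEGF ligands Vegfa, Vegfb, Vegfc and Pgf, the VEGF receptors Kdr, Flt1 and Flt4, the angiopoietins Angpt1 and Angpt2, and their receptor Tek. They are 10 of the 54752 genes in the deposited count table, each matched by its symbol to 1 row. All 10 passed the filter on low counts, which kept 21840 genes, although Pgf did so with few counts. Ribosomal-RNA-depleted liver RNA had been sequenced from 18 male C57BL/6 mice, 6 in each of 3 groups, taken from an experiment of 45 mice (15 per group) that were 6 weeks old at its start. Control mice received olive oil into the peritoneum and water by gavage. CCl4 mice received carbon tetrachloride, which hepatocyte P450 enzymes turn into a radical that kills the cells, into the peritoneum 2 times a week, with water by gavage. CCl4_PTH mice received the same injections and Pien Tze Huang, a Chinese herbal medicine abbreviated both PTH and PZH in the labels, by gavage each day. Livers were taken in week 22. No group received Pien Tze Huang without CCl4, so that its effect in uninjured liver was not measured. Whether the pieces held tumour, and the time since the last injection, are not given in the sources used here.

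VEGF ligands act on receptor tyrosine kinases of endothelial cells. Kdr carries most of the growth and permeability signal of VEGF-A, Flt1 binds VEGF-A, VEGF-B and PlGF (encoded by Pgf) and holds VEGF-A away from Kdr, and Flt4 is the receptor of VEGF-C. Angiopoietin-1 activates the receptor encoded by Tek and keeps vessels quiet and tight, whereas angiopoietin-2, released by the endothelium itself, often opposes it. In liver, hepatocytes are a main source of VEGF-A, and the fenestrated endothelium of the sinusoids carries Kdr and Flt4.

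Libraries held 67.2 M to 119 M counts, of which 30.6% to 55.8% fell on 357 loci of ribosomal RNA. Because that share and the composition of the remaining RNA differed, counts were scaled with the trimmed mean of M values (TMM), whose factors ran from 0.652 to 1.456, and levels are given as CPM, the counts brought to one common scaled library size. Levels of different genes were ordered by RPKM, the CPM per kilobase of exonic sequence. Differences of a receptor from endothelial markers were taken on log2 CPM and compared only between groups. Markers of other cells moved with the groups. In CCl4 against control livers, 9 of 10 macrophage, 8 of 8 neutrophil, 6 of 6 cholangiocyte and 8 of 14 stellate cell and pericyte markers were called higher, and 5 of 10 hepatocyte markers were called lower. The shares over all genes tested were 26.3% higher and 21.2% lower. Library 1 of the CCl4_PTH group stood apart, with the 9 neutrophil markers summing to 214 CPM, against 5.49 to 19.7 CPM in the other 5 libraries of its group and 0.608 to 1.31 CPM in control libraries. The values of that library, which was seen to stand apart after the data were examined, are given beside the group means it moves. In the CCl4 group the same sum was 106.6 CPM in library 2 and 49.3 CPM in library 7, against 7.49 to 15.6 CPM in the other 4. The labels name no separate litters, cages or batches, and p-values measure the spread between these mice.

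Promoter sequences are shown for 4 members, the 3 whose RNA was lower in CCl4 livers (Vegfa, Vegfb and Kdr) and the VEGF ligand whose RNA was higher (Vegfc). Each is the 250 bases before the RefSeq start of the gene (table of build GRCm38.p6), written 5′ to 3′ on the gene's strand. Capitals mark hypoxia response cores (ACGTG or GCGTG) and GC boxes (GGGCGG), found on either strand, so that some read as the reverse complement. The windows are chr17:46032378-46032627 on the minus strand for Vegfa, chr19:6987652-6987901 on the minus strand for Vegfb, chr5:75978456-75978705 on the minus strand for Kdr and chr8:54077282-54077531 on the plus strand for Vegfc.
Vegfa: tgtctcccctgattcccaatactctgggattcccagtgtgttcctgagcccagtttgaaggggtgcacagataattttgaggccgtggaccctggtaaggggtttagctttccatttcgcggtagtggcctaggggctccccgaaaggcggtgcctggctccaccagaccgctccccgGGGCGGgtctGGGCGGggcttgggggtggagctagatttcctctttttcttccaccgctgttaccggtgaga
Vegfb: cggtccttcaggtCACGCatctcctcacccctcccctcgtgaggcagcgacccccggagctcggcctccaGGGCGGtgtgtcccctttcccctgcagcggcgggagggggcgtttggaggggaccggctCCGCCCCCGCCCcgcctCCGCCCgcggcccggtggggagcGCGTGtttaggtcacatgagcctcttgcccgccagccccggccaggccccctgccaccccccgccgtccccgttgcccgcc
Kdr: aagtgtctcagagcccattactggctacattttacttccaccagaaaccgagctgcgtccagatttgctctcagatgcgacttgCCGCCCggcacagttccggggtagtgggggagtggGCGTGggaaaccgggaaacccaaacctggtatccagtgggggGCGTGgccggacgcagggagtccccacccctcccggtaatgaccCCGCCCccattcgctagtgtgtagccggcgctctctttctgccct
Vegfc: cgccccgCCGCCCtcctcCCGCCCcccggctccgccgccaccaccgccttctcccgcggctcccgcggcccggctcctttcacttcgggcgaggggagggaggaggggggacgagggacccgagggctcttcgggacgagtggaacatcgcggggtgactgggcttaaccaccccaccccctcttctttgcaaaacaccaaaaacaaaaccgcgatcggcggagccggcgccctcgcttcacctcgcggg
The printed Vegfa window and the Vegfc window held 0 hypoxia cores and 2 GC boxes each. The Kdr window held 2 cores, both GCGTG, and 2 GC boxes, and the Vegfb window 2 cores and 4 GC boxes. The table holds a second Vegfa start, inside the gene as annotated. Its window (chr17:46025164-46025413), which is not printed and lies wholly within the gene, held 2 cores and 1 GC box. Those matches may lie in exons of Vegfa, which was not checked. A core of either form occurred in 38.6% and a GC box in 32.7% of all 32851 windows of the table cut to the same length. These matches describe the letters of the 250-base windows only, and sequence farther from the start was not searched. Of the 10 members, 8 had a window in the table and Angpt1 and Angpt2 did not.

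Vegfa was the most abundant member per length in control livers, with a median of 21.4 RPKM over 6 libraries, followed by Kdr at 7.61 RPKM. Flt4 (median 3.77 RPKM, range 3.55 to 4.32) and Vegfb (3.26 RPKM, 2.51 to 5.20) overlapped in their ranges. Tek lay at 2.31 RPKM (1.80 to 2.78), which overlapped Vegfb but not Flt4. Flt1 (1.09 RPKM, 0.885 to 1.20) and Vegfc (0.741 RPKM, 0.613 to 0.951) also overlapped, and Angpt2 (0.427 RPKM), Angpt1 (0.0976 RPKM) and Pgf (listed at 0 in 5 of 6 libraries) came last. The order was the same by median in CCl4 livers except that Tek (2.68 RPKM) lay above Vegfb (2.04 RPKM) and Vegfc (1.65 RPKM) above Flt1 (1.13 RPKM). In CCl4_PTH livers Tek (2.81 RPKM) and Vegfb (2.54 RPKM), and Vegfc (1.24 RPKM) and Flt1 (1.09 RPKM), were in that changed order too, with overlapping ranges in both pairs.

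**Figure D1:**
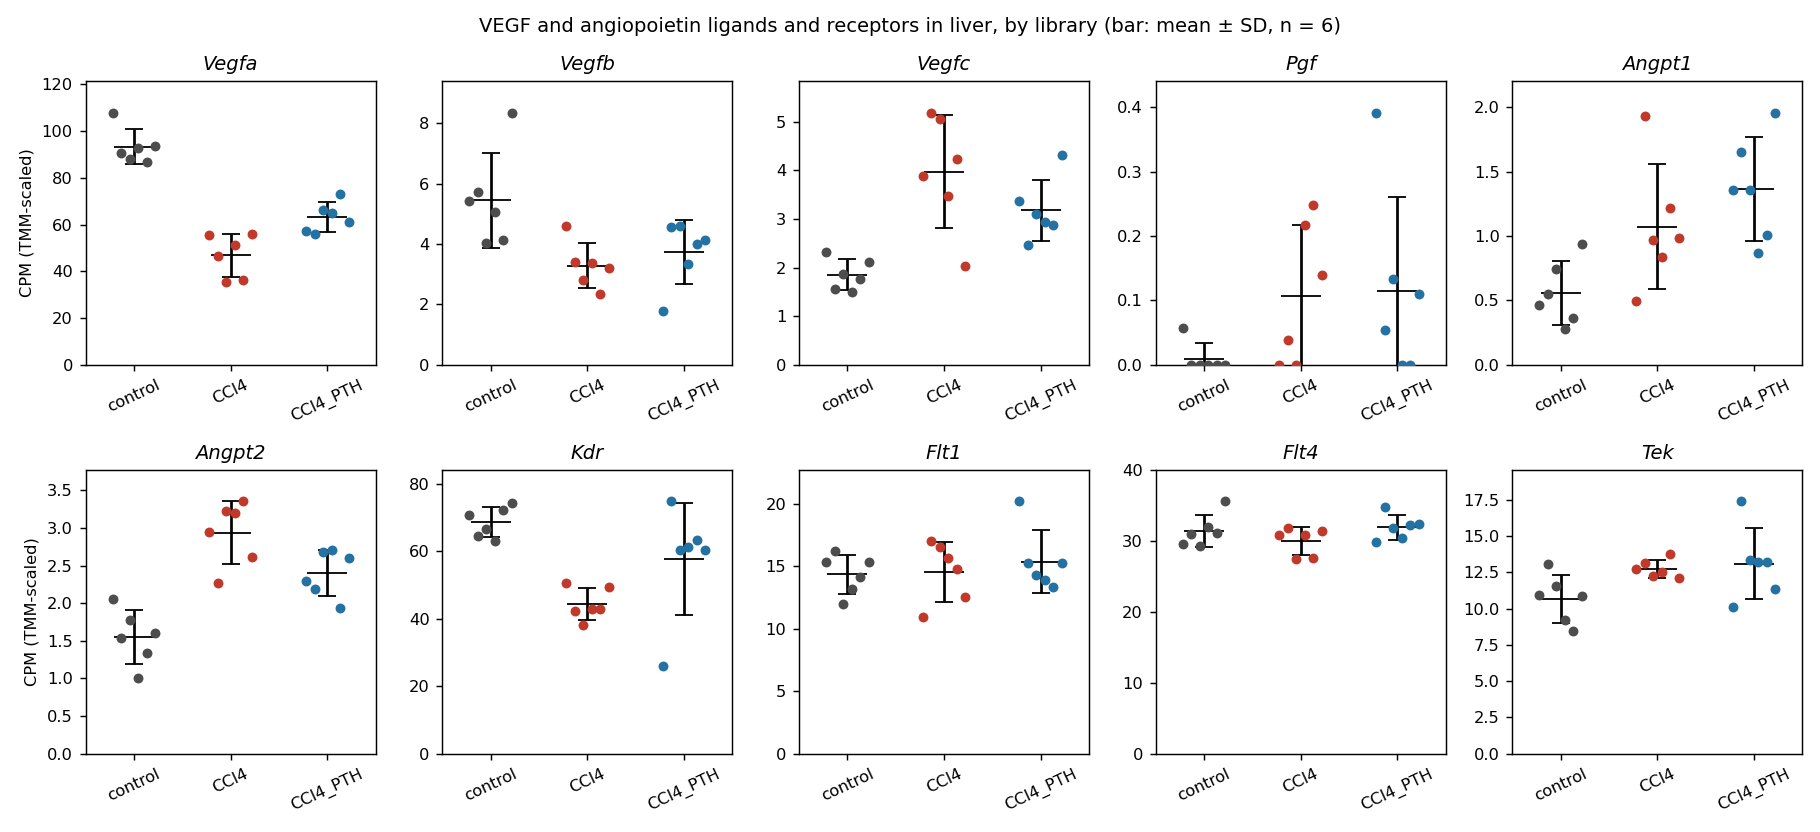
Level of each of the 10 genes in CPM on TMM-scaled library sizes (y axis, from 0), 1 point per library, with the mean and SD of the 6 libraries of each group (the lower bar of Pgf is clipped at 0). Vegfa and Kdr in every CCl4 library lie below every control library, Angpt2 lies above, and 1 CCl4_PTH library lies apart at 25.9 CPM of Kdr.

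The first comparison asks how repeated CCl4 injury altered these genes. In CCl4 livers 3 members were called lower, Vegfa, Vegfb and Kdr, and 3 were called higher, Vegfc, Angpt1 and Angpt2. The main VEGF ligand, its close relative and its main receptor thus fell. Vegfc, a ligand of Flt4, and the Tek ligands Angpt1 and Angpt2 rose. Of all genes tested, 26.3% were called higher and 21.2% lower in this comparison, 47.4% in either direction (edgeR quasi-likelihood test, Benjamini-Hochberg adjusted p at most 0.05), so 3 of 10 in each direction is near the background and is no result about the members as a set. The median log2 fold change was 0.14 over the members and 0.05 over all genes tested. The ranges of the 6 CCl4 and 6 control libraries did not overlap for 3 members, Vegfa, Angpt2 and Kdr, as was so for 26.1% of all genes tested.

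Vegfa, the principal growth factor for endothelium (GRCm38 chromosome 17, 46016993 to 46032369, minus strand, 8 exonic blocks), ranged from 87.0 to 107.9 CPM in control livers, with a median of 91.7 CPM. In CCl4 livers it ranged from 35.4 to 56.1 CPM, with a median of 48.9 CPM. All 6 CCl4 libraries were below the lowest control library, and CCl4 libraries 4 and 7 were the lowest. The fall was 1.99-fold (log2 fold change −0.99 ± 0.12 SE, 95% interval −1.23 to −0.75, edgeR adjusted p = 2.02e-06). It kept its sign and stayed past the threshold in each of 9 other settings (other scalings, filters, tools and designs), and with each of the 18 libraries left out in turn it lay between −1.08 and −0.91.

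Vegfb, a ligand of Flt1 (chromosome 19, 6982473 to 6987651), had a median of 5.24 CPM in control livers (4.02 to 8.35) and of 3.28 CPM in CCl4 livers (2.36 to 4.59). In 5 of 6 CCl4 libraries it was below the lowest control library. Its log2 fold change was −0.73 ± 0.22 SE (edgeR adjusted p = 0.0102, 1.66-fold lower), with a 95% interval of −1.20 to −0.27. Vegfa and Vegfb moved beside the hepatocyte markers, which summed to 42197 to 57900 CPM in control and 16248 to 45512 CPM in CCl4 livers. The list was divided, since Alb, Cps1 and 3 others were not called, while the pericentral genes Cyp2e1 and Glul had the lowest log2 fold changes (−4.12 and −3.39). The part of this shift in the Vegfa and Vegfb results was not tested, and in bulk liver fewer cells of a type and less RNA per cell cannot be told apart.

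Vegfc, the lymphatic growth factor that activates Flt4 (chromosome 8, 54077606 to 54187096), had a median of 1.82 CPM in control livers (1.50 to 2.33) and of 4.05 CPM in CCl4 livers (2.03 to 5.19). CCl4 library 8 was the only one of 6 within the control range. The rise was 2.14-fold (log2 1.10 ± 0.20 SE, 95% interval 0.68 to 1.51, edgeR adjusted p = 0.000187). Pgf, whose product binds Flt1, had 5 counts in all 6 control libraries together, all in library 1. CCl4 libraries held 60 counts of it in all, from 0 in libraries 1 and 4 to 27 in library 7. That difference missed the threshold (edgeR adjusted p = 0.0715), and at these counts no fold is given. It passed when control library 1 (adjusted p = 0.0334), CCl4 library 1 (0.0490) or CCl4 library 4 (0.0483) was left out.

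Angpt1, an agonist of Tek (chromosome 15, 42424723 to 42676977), had a median of 0.508 CPM in control (0.276 to 0.941) and of 0.978 CPM in CCl4 livers (0.495 to 1.93). In 4 of 6 CCl4 libraries it lay above the highest control library. Its log2 fold change was 0.95 ± 0.33 SE (edgeR adjusted p = 0.0228, 95% interval 0.26 to 1.63). This call was lost, at adjusted p from 0.0504 to 0.0918, when any 1 of control libraries 1, 4 and 5 or CCl4 libraries 2 and 7 was left out. The last 2 are those with the highest neutrophil marker sums, and also the highest Angpt1, of their group. CCl4_PTH library 1, with the highest neutrophil marker sum of its group (214 CPM), had 1.35 CPM of Angpt1, against a group median of 1.35 CPM. The part of neutrophils in the Angpt1 value was not tested. Of the 5205 exonic bases of Angpt1, 737 overlap the antisense gene Gm17473, and reads of the pair cannot be told apart because the use of strand in counting is not given.

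Angpt2, the context-dependent antagonist (chromosome 8, 18690263 to 18741562), had a median of 1.58 CPM in control (1.01 to 2.05) and of 3.07 CPM in CCl4 livers (2.27 to 3.36). The groups did not overlap. The rise was 1.89-fold (log2 0.92 ± 0.16 SE, 95% interval 0.57 to 1.26, edgeR adjusted p = 0.000162). The Angpt2 to Angpt1 ratio of RPKM was 4.39 ± 1.40 in control and 4.62 ± 2.23 in CCl4 livers (SD, n = 6 each), with wide overlap.

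Among the receptors, Kdr, the main signalling receptor of VEGF-A (chromosome 5, 75932827 to 75978458), had a median of 68.7 CPM in control (63.1 to 74.2) and of 42.9 CPM in CCl4 livers (38.0 to 50.5). Every CCl4 library was below every control library. The fall was 1.55-fold (log2 −0.63 ± 0.16 SE, 95% interval −0.97 to −0.28, edgeR adjusted p = 0.00395). Flt1, the high-affinity receptor with weak kinase activity, had medians of 14.7 CPM (control, 12.0 to 16.2) and 15.2 CPM (CCl4, 10.9 to 17.0). Its log2 fold change of 0.02 had a 95% interval of −0.23 to 0.27 (edgeR adjusted p = 0.896). Flt4, the VEGF-C receptor, had medians of 31.1 CPM (29.3 to 35.6) and 30.8 CPM (27.5 to 31.8), with a log2 fold change of −0.07 and an interval of −0.21 to 0.07 (edgeR adjusted p = 0.438). That interval does not show equality, and it holds under TMM scaling only. With library sizes alone the log2 fold change of Flt4 was 0.51 (edgeR adjusted p = 0.00257). Tek, the angiopoietin receptor, had medians of 10.9 CPM (8.48 to 13.1) and 12.6 CPM (12.1 to 13.8) and a log2 fold change of 0.25 ± 0.12 SE that missed the threshold (edgeR adjusted p = 0.0829) and passed it under a filter of at least 1 CPM in 6 libraries (0.0481).

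These values rest on TMM scaling. With library sizes alone, the median log2 fold change of all genes moved from 0.05 to 0.63 in CCl4 against control, and the share of called genes that were higher from 55.3% to 91.4%. Under that scaling 7 members were called higher and 1, Vegfa, lower (log2 fold change −0.45, edgeR adjusted p = 0.0119). Vegfb and Kdr were no longer called (log2 fold changes −0.18 and −0.06, edgeR adjusted p = 0.533 and 0.813). The ranges of Kdr then overlapped, at 42.0 to 73.1 CPM in control and 40.7 to 58.9 CPM in CCl4 livers. Those of Vegfa did too (58.5 to 111.5 and 47.2 to 66.9 CPM), while those of Angpt2 stayed apart (0.796 to 2.12 and 2.60 to 4.69 CPM). A change of scaling moves all log2 fold changes of a comparison by nearly the same amount. Values relative to the median of all genes therefore stay nearly the same by construction, and they cannot show which scaling is right. On that measure Vegfa lay at −1.04 with TMM and −1.08 with library sizes alone, Kdr at −0.68 and −0.69, Vegfc at 1.04 and 1.05, and Angpt2 at 0.86 under both. Flt1, Flt4 and Tek were called higher with library sizes alone, and relative to the median they lay at −0.02, −0.12 and 0.22.

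**Figure D2:**
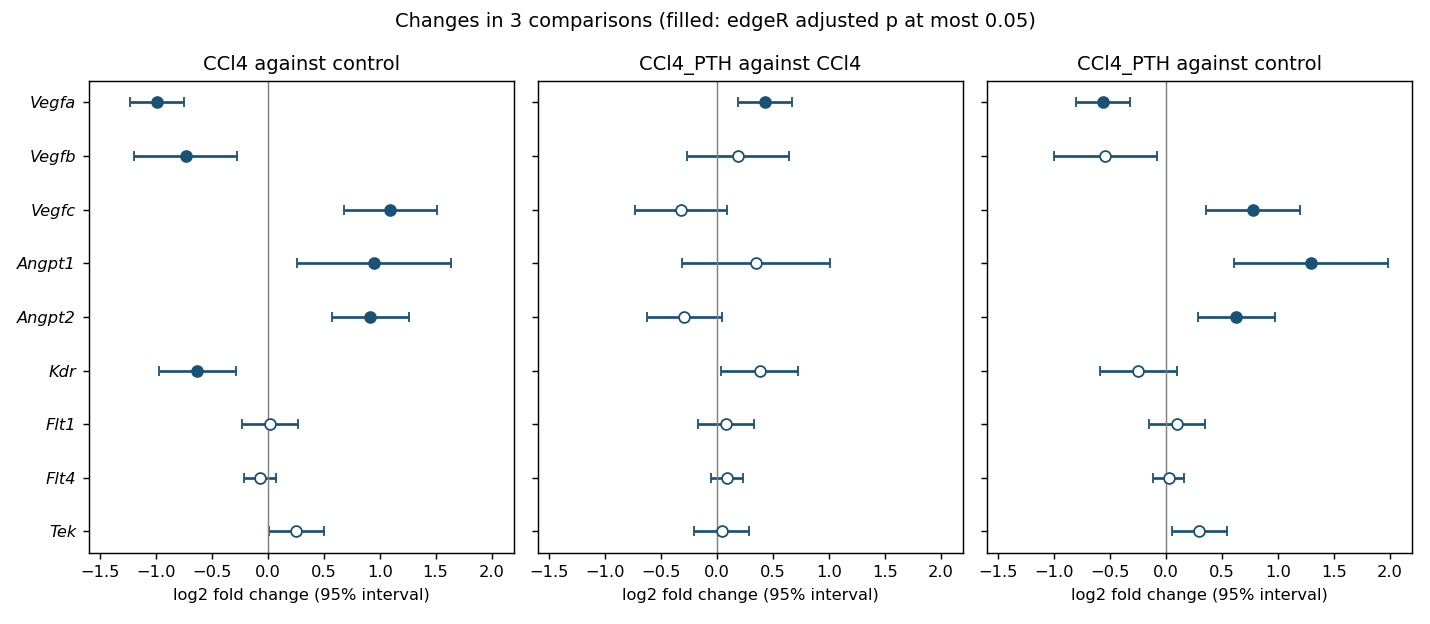
Log2 fold change with its 95% interval (x axis) of 9 members in the 3 comparisons, filled where the edgeR adjusted p was at most 0.05. Pgf is not drawn because its counts were too few. Vegfa is at −0.99, 0.43 and −0.56 in the 3 panels, and it is the only filled point in the middle one.

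The second comparison asks what Pien Tze Huang altered in CCl4-injured liver. Vegfa was called higher in CCl4_PTH than in CCl4 livers, and the other 9 members did not pass the threshold. Of all genes tested, 7.1% were called higher and 4.95% lower, 12.1% in either direction, so that 1 of 10 higher and 0 of 10 lower are near the background. No member had CPM ranges that did not overlap, against 4.07% of all genes tested. The median log2 fold change was 0.09 over the members and −0.03 over all genes, which became −0.13 with library sizes alone, where 43.4% instead of 58.9% of the called genes were higher. CCl4 livers enter both this and the first comparison, so a direction opposite to the first is not independent of it.

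Vegfa ranged from 55.9 to 72.9 CPM in CCl4_PTH livers, with a median of 63.2 CPM, against 35.4 to 56.1 CPM in CCl4 livers. In 5 of 6 CCl4_PTH libraries it was above the highest CCl4 library, and library 2 lay just below that library. The rise was 1.35-fold (log2 0.43 ± 0.11 SE, 95% interval 0.19 to 0.67, edgeR adjusted p = 0.0207). The call was lost without CCl4 library 4 (adjusted p = 0.0521), CCl4 library 7 (0.0511) or CCl4_PTH library 7 (0.0597), in a fit of the 2 groups alone (0.0550), and with library sizes alone (log2 0.35, adjusted p = 0.159). Beside it, 2 of 10 hepatocyte markers, Cyp2e1 and Glul, rose and the list summed to 33586 to 44449 CPM. Whether these markers have a part in the Vegfa value was not tested.

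Kdr was the other member near the threshold. In CCl4_PTH libraries 2, 3, 6, 7 and 8 it lay at 60.5 to 74.8 CPM, above all 6 CCl4 libraries, and in library 1 at 25.9 CPM, below all of them. With all libraries the log2 fold change was 0.38 ± 0.16 SE and did not pass (edgeR adjusted p = 0.138). Without CCl4_PTH library 1 it was 0.55 (adjusted p = 0.000383), and with limma's sample weights, which lower the weight of libraries that depart from their group, it was 0.47 (adjusted p = 0.0116). Library 1 also had the highest Flt1 (20.2 CPM, against 13.3 to 15.3 CPM in the other 5), the lowest Vegfb (1.80 CPM, against 3.34 to 4.58 CPM) and the lowest Tek (10.1 CPM, against 11.3 to 17.4 CPM) of its group, beside its neutrophil marker sum. The part of neutrophil RNA or of the sampled piece in these values was not tested.

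The remaining members did not pass in either direction. Vegfc had a median of 3.03 CPM in CCl4_PTH livers (2.46 to 4.31) and a log2 fold change of −0.32 ± 0.20 SE (edgeR adjusted p = 0.310), and Angpt2 a median of 2.44 CPM (1.94 to 2.70) and a log2 fold change of −0.29 ± 0.16 SE (adjusted p = 0.260). Angpt1 had a median of 1.35 CPM (0.865 to 1.96) and a log2 fold change of 0.35 ± 0.32 SE (adjusted p = 0.529), with an interval from −0.31 to 1.01 that does not show equality. Vegfb lay at a median of 4.07 CPM (log2 0.19, adjusted p = 0.641). Pgf had 79 counts in the 6 CCl4_PTH libraries, 46 of them in library 1, against 60 in CCl4 libraries (adjusted p = 0.966). CCl4_PTH libraries were deeper, with a mean of 103 M counts against 76.7 M in CCl4 libraries. The mean of Pgf was 0.115 CPM in CCl4_PTH and 0.107 CPM in CCl4 livers. The intervals were narrower for Flt4 (−0.05 to 0.23), Flt1 (−0.17 to 0.33) and Tek (−0.20 to 0.29).

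The third comparison sets treated livers against uninjured ones, and it shares libraries with the first 2. In CCl4_PTH against control livers, Vegfc, Angpt1 and Angpt2 were called higher and Vegfa lower, and the other 6 members did not pass. Of all genes tested, 17.4% were called higher and 10.3% lower, 27.7% in either direction. Ranges did not overlap for 2 members, Vegfa and Vegfc, and for 14.5% of all genes tested. The median log2 fold change was 0.20 over the members and 0.04 over all genes, which became 0.51 with library sizes alone, where 96.4% instead of 62.8% of the called genes were higher and 7 members were called higher and 0 lower.

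Vegfa was below control in 6 of 6 CCl4_PTH libraries, with a log2 fold change of −0.56 ± 0.12 SE (edgeR adjusted p = 0.00137). With library sizes alone this call was lost (log2 −0.10, edgeR adjusted p = 0.570). The ranges then overlapped, at 60.1 to 75.4 CPM in CCl4_PTH and 58.5 to 111.5 CPM in control livers. Relative to the median of all genes Vegfa lay at −0.60 with TMM and −0.62 without, a likeness that is nearly fixed by construction. Vegfc was above control in 6 of 6 libraries (log2 0.77 ± 0.20 SE, edgeR adjusted p = 0.00733), and Angpt2 in 5 of 6 (log2 0.62 ± 0.16 SE, adjusted p = 0.00837). Angpt1 was above the highest control library in 5 of 6 (log2 1.30 ± 0.33 SE, adjusted p = 0.00659), a 2.46-fold rise. Side by side, Angpt1 thus had log2 fold changes against control of 0.95 in CCl4 and 1.30 in CCl4_PTH livers, and Angpt2 of 0.92 and 0.62. Kdr did not pass (log2 −0.25 ± 0.16 SE, edgeR adjusted p = 0.279; −0.11 and 0.398 without CCl4_PTH library 1), nor did Vegfb (−0.55 ± 0.22 SE, adjusted p = 0.0714), Pgf (adjusted p = 0.0893), Flt1 (0.10, adjusted p = 0.578) or Flt4 (0.02, adjusted p = 0.839). Tek missed the threshold (0.30 ± 0.12 SE, adjusted p = 0.0688) and passed it when control library 2 (0.0463) or CCl4_PTH library 1 (0.0262) was left out.

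The make-up of the RNA of the 4 VEGF ligands among the members differed between the groups. Vegfd, which stands in the list of partners, was left out of this sum. Vegfa took 84.1% ± 3.01 of the summed RPKM of the 4 ligands in control, 74.3% ± 4.71 in CCl4 and 80.1% ± 2.98 in CCl4_PTH livers (SD, n = 6 each). Vegfc took 2.91% ± 0.358, 11.5% ± 4.45 and 7.10% ± 1.54 in the same order. The control range of the Vegfc share (2.41% to 3.22%) lay below those of CCl4 (5.19% to 17.1%) and CCl4_PTH livers (5.69% to 9.42%), which overlapped each other. Vegfb took 13.0% ± 3.04, 13.9% ± 1.47 and 12.6% ± 3.36, with 7.0% in CCl4_PTH library 1 and 11.2% to 16.8% in the other 5 libraries of that group. Such shares do not depend on the scaling between libraries, because each is taken within 1 library.

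Among the VEGF receptors, Kdr took 60.9% ± 1.72 of the summed RPKM in control, 50.9% ± 3.07 in CCl4 and 54.8% ± 9.38 in CCl4_PTH livers (SD, n = 6 each). Flt4 took 30.6% ± 1.51, 37.8% ± 1.15 and 34.7% ± 5.33, and Flt1 8.51% ± 0.835, 11.3% ± 2.30 and 10.5% ± 4.07. Kdr shares of CCl4 livers (47.8% to 55.2%) were all below those of control livers (59.0% to 62.4%). In CCl4_PTH livers library 1 stood apart in all 3 shares. Its Kdr share was 35.9%, its Flt4 share 45.4% and its Flt1 share 18.7%. The other 5 libraries had 58.6% ± 1.44 Kdr, 32.5% ± 1.01 Flt4 and 8.84% ± 0.568 Flt1 (SD, n = 5). With counts not divided by length, the mean Flt1 share was 12.5% in control, 16.5% in CCl4 and 15.3% in CCl4_PTH livers (n = 6 each).

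**Figure D3:**
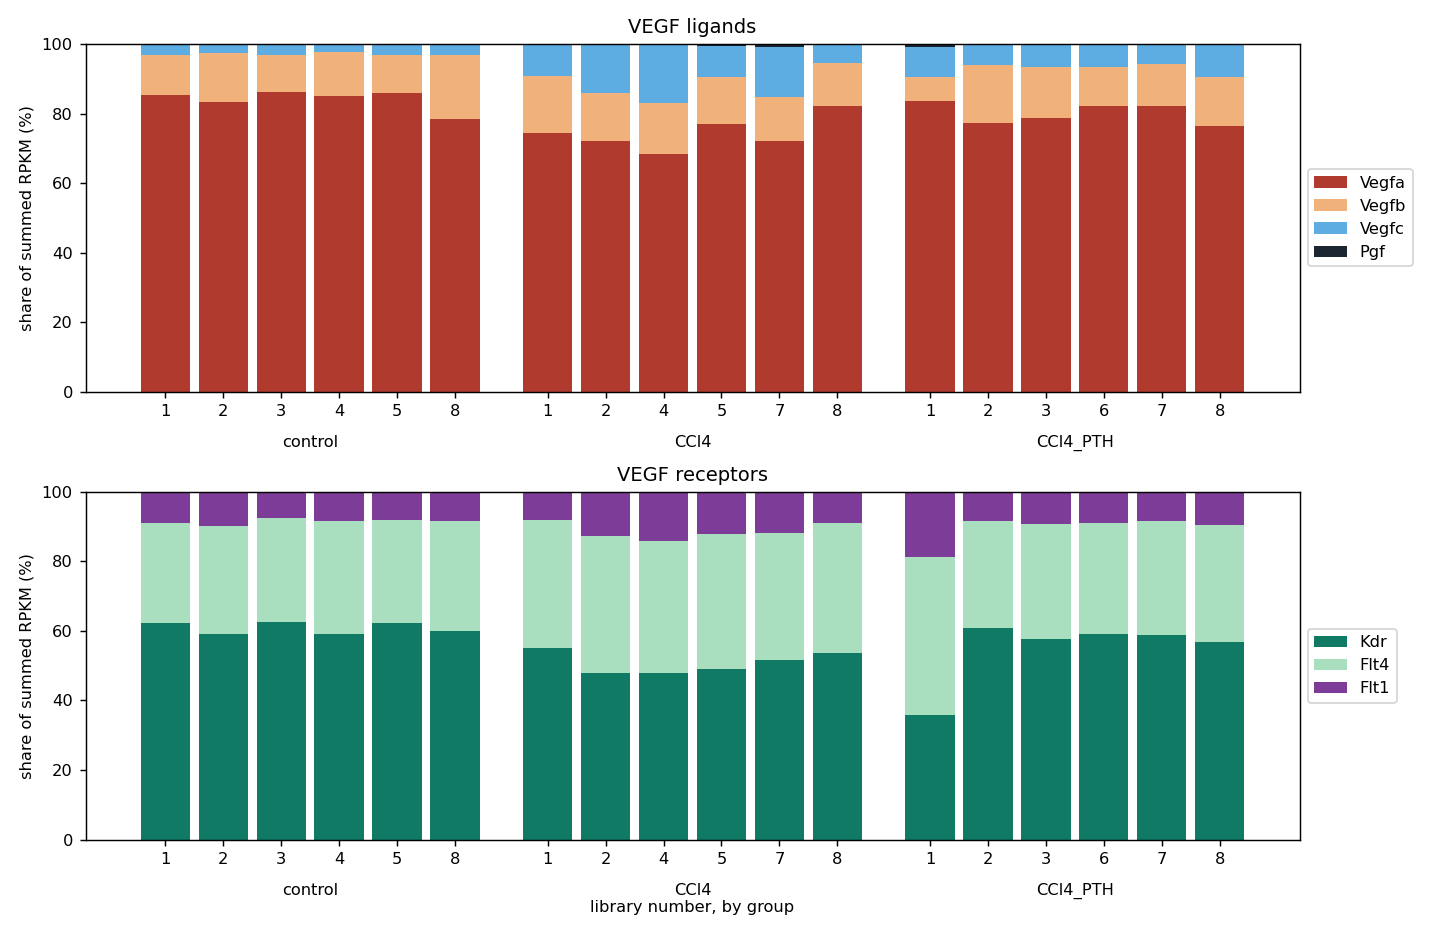
Share of each gene in the summed RPKM of the 4 VEGF ligands among the members (top) and the 3 VEGF receptors (bottom), in percent (y axis). There is 1 stacked bar per library, with library numbers by group on the x axis. The Vegfc part is wider in CCl4 than in control libraries, and the Kdr part of CCl4_PTH library 1 is the smallest, at 35.9%.

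The Kdr to Flt1 ratio of RPKM was 7.21 ± 0.793 in control, 4.74 ± 1.38 in CCl4 and 5.87 ± 2.0 in CCl4_PTH livers (SD, n = 6 each). Its level rests on exonic lengths of 9030 bases for Kdr and 13504 for Flt1, which join all annotated exons of a gene. These lengths are the same in every library. CCl4 library 1, at 6.93, was within the control range of 5.96 to 8.34, library 8, at 5.91, was just under it, and the other 4 lay between 3.43 and 4.35. In CCl4_PTH livers library 1 lay at 1.91, and the other 5 lay between 5.93 and 7.31 with a mean of 6.66 ± 0.568 (SD). The Angpt2 to Angpt1 ratio was 2.67 ± 0.939 in CCl4_PTH livers, where 5 libraries lay between 1.87 and 2.79 and library 6 at 4.41, and its range overlapped those of both other groups.

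**Figure D4:**
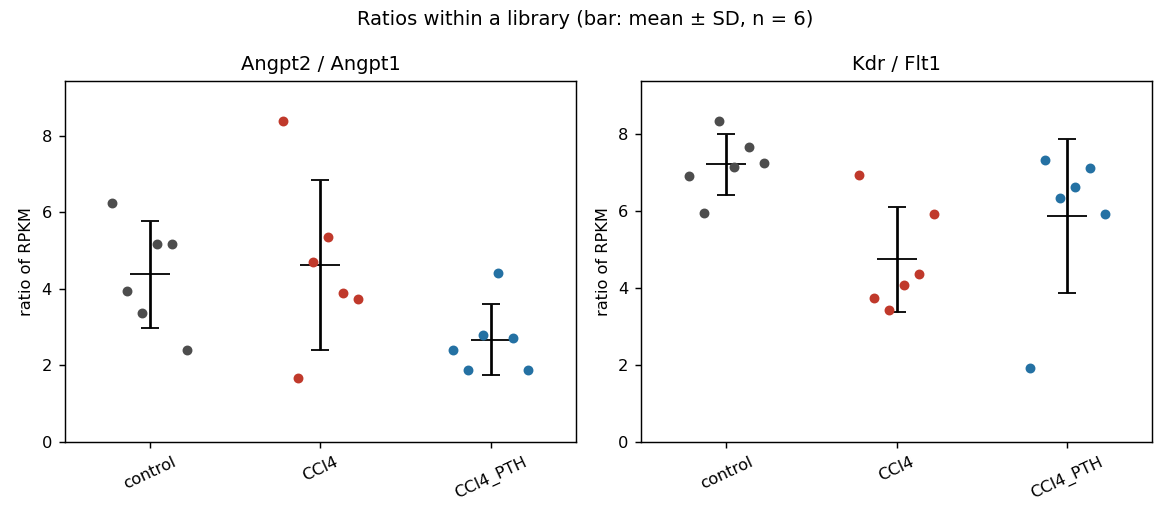
Ratio of RPKM within each library (y axis, from 0) of Angpt2 to Angpt1 (left) and of Kdr to Flt1 (right), with the mean and SD of 6 libraries per group. CCl4_PTH library 1 lies at 1.91 for Kdr to Flt1, and the other 5 of its group lie between 5.93 and 7.31.

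The receptors were next set beside markers of endothelium. Of 13 pan-endothelial markers, among them Pecam1 and Cdh5, which encode junction proteins, 6 were called higher and 0 lower in CCl4 against control livers, 0 in either direction in CCl4_PTH against CCl4, and 5 higher in CCl4_PTH against control. Cd34 had the largest of these changes in CCl4 livers (log2 2.57), and Pecam1 and Cdh5 had 0.67 and 0.37. The list was divided, with a median log2 fold change of 0.20 and 7 markers not called. Mean CPM was lower in CCl4 than in control livers for Erg (4.35 against 4.91), Cldn5 (2.43 against 2.74) and Emcn (1.96 against 2.12). Of all genes tested, 26.3% were called higher and 21.2% lower. The mean log2 CPM of the list was 2.47 ± 0.133 in control, 2.97 ± 0.118 in CCl4 and 2.90 ± 0.135 in CCl4_PTH livers (SD, n = 6 each), and the ranges of control (2.35 to 2.69) and CCl4 livers (2.80 to 3.13) did not overlap. Among vascular endothelial markers 8 of 12 were called higher and 1, Lifr, lower in CCl4 livers, whereas of 14 sinusoidal markers 3 were higher (Stab1, Cd36 and Lyve1) and 2 lower (Ehd3 and Clec4g). Of 7 tested lymphatic markers, 3 were higher, Gja4, Lyve1 and Pdpn.

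Less the mean of the pan-endothelial markers in its own library, Kdr stood at 3.63 ± 0.122 log2 units in control, 2.49 ± 0.205 in CCl4 and 2.88 ± 0.435 in CCl4_PTH livers (SD, n = 6 each). Flt4 stood at 2.5 ± 0.154, 1.93 ± 0.169 and 2.1 ± 0.108, and Flt1 at 1.36 ± 0.167, 0.87 ± 0.289 and 1.03 ± 0.324. For these 3 receptors no CCl4 library reached the lowest control library. Without CCl4_PTH library 1, which stood at 2.04 for Kdr, 2.25 for Flt4 and 1.68 for Flt1, the CCl4_PTH values were 3.05 ± 0.158 for Kdr, 2.07 ± 0.0878 for Flt4 and 0.90 ± 0.0521 for Flt1 (SD, n = 5). Tek stood at 0.93 ± 0.244, 0.70 ± 0.120 and 0.79 ± 0.235, with overlapping ranges. With the mean of Pecam1 and Cdh5 alone as the reference, Kdr stood at 1.87 ± 0.0840, 0.72 ± 0.300 and 1.12 ± 0.447, the last being 1.30 ± 0.0934 without library 1. These differences are descriptions that depend on the markers chosen, and how much of them is a change of endothelial cell type was not tested. In the fit, Flt1 and Flt4 were not called in CCl4 against control livers.

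**Figure D5:**
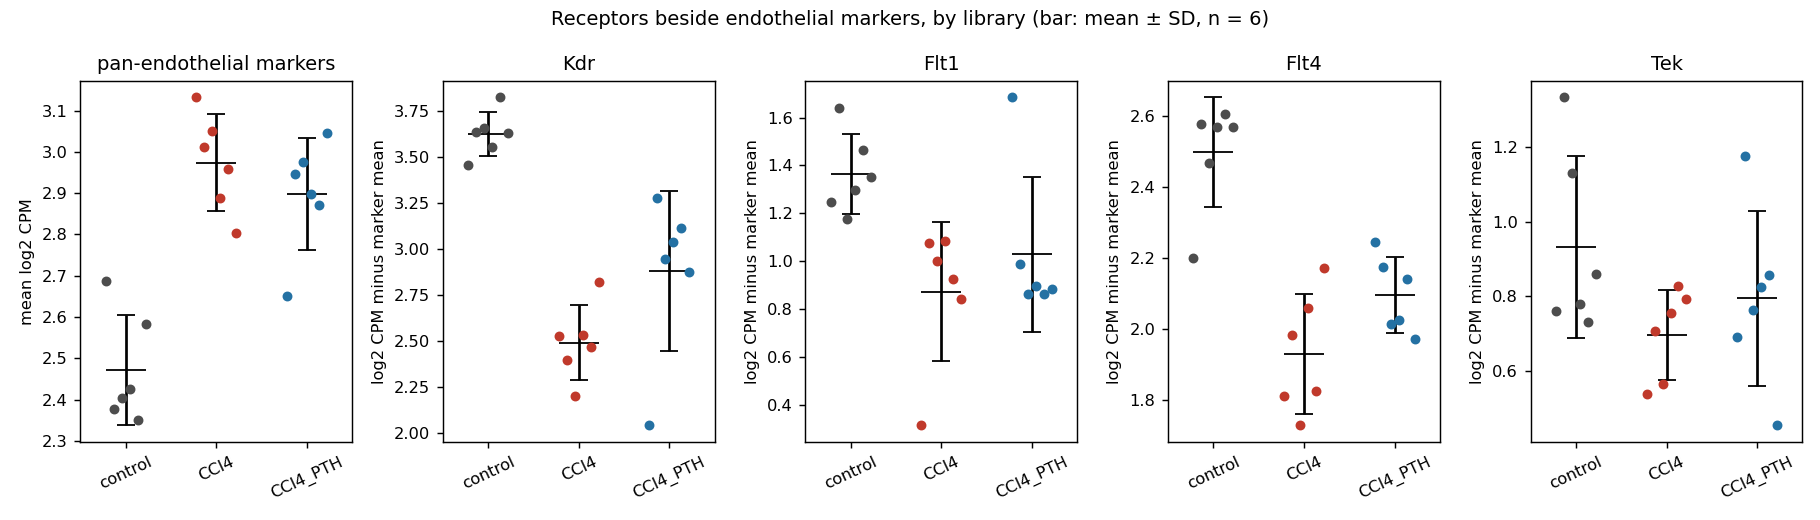
Mean log2 CPM of 13 pan-endothelial markers (left) and the log2 CPM of each receptor less that mean (other panels), 1 point per library, with the mean and SD of 6 libraries per group (y axes do not start at 0). The marker mean of CCl4 libraries (2.80 to 3.13) lies above that of control libraries (2.35 to 2.69), and Kdr less the marker mean lies lower.

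Genes that work with the ligands and receptors were taken from lists, whose counts are given with TMM scaling only. The counts are to be read beside the shares called higher and lower over all genes tested. These were 26.3% and 21.2% in CCl4 against control, 7.1% and 4.95% in CCl4_PTH against CCl4, and 17.4% and 10.3% in CCl4_PTH against control. Partners included the further ligands Vegfd and Angpt4, co-receptors, processing enzymes, integrins and guidance ligands. Of 17 tested partners, 11 were called higher and 1 lower in CCl4 against control livers. Their median log2 fold change was 0.77 against 0.05 over all genes. Angpt4, named after its values were seen, had 14 counts over the control libraries, 236 over those of CCl4 and 163 over those of CCl4_PTH. Svep1, a matrix protein of lymphatic vessels, had medians of 2.68 CPM in control, 26.6 CPM in CCl4 and 18.6 CPM in CCl4_PTH livers, with a log2 fold change of 3.74 ± 0.28 SE in CCl4 livers (edgeR adjusted p = 3.12e-08). Flrt2, a guidance ligand of Unc5 receptors, rose by 2.94 on the log2 scale (adjusted p = 1.78e-06). Adamts3 and Adamts14, proteases that cleave VEGF-C or collagen precursors, rose by 1.63 and 1.56, and were named after their values were seen. Nrp1, the co-receptor that presents VEGF-A to Kdr, was the only partner called lower, and it was also named after its values were seen. It had medians of 77.9 CPM in control, 50.7 CPM in CCl4 and 51.7 CPM in CCl4_PTH livers, with log2 fold changes against control of −0.69 ± 0.12 SE in CCl4 (edgeR adjusted p = 0.000134) and −0.65 in CCl4_PTH livers. In CCl4_PTH against CCl4 livers 0 partners were called higher and 1 lower, the integrin gene Itgav (log2 −0.45 ± 0.12 SE, edgeR adjusted p = 0.0194), and against control 7 were higher and 1 lower. Svep1 and Itgav overlap antisense genes. Other list genes named below do so too, among them Dusp5 (547 of 2473 exonic bases), Bnip3 (504 of 2265), Foxo1, Plcg1, Ndrg1 and Hhip. Reads of such pairs cannot be told apart, because the use of strand in counting is not given.

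Of 28 genes of signal transduction behind the receptors, 12 were called higher and 6 lower in CCl4 livers, with a median log2 fold change of 0.08. The number lower is near the share over all genes tested (21.2%). Src, a kinase recruited to Kdr, rose by 2.36 ± 0.24 SE on the log2 scale (edgeR adjusted p = 5.55e-07), and Nck2, an adaptor to the cytoskeleton, by 1.86 ± 0.18 SE (adjusted p = 2.92e-07). Grb7, an adaptor of Tek, fell by 1.14, and Plcg1, which carries the Kdr signal to protein kinase C, fell by 0.79. In CCl4_PTH against CCl4 livers 3 were higher, Grb7 (0.87), Plcg1 (0.47) and Foxo1 (0.38), and 3 were lower, Dok2 (−1.33), Src (−0.87) and Nck2 (−0.81). In CCl4_PTH against control livers 6 were higher and 4 lower. Many of these genes are also used by leukocytes. Beside them, 3 of 10 macrophage markers, Ccr2, Cd68 and Trem2, were lower and 1, Clec4f, was higher in CCl4_PTH than in CCl4 livers, and the list summed to 456 to 1104 CPM in CCl4, 313 to 675 CPM in CCl4_PTH and 150.2 to 234 CPM in control livers. The part of leukocyte RNA was not tested.

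Of 20 tested genes that VEGF induces in endothelium or that mark tip cells, the leading cells of sprouts, 12 were called higher and 1, F3, lower in CCl4 livers, with a median log2 fold change of 0.93. Cxcr4, a chemokine receptor of tip cells and of leukocytes, had medians of 0.431, 4.17 and 2.44 CPM in control, CCl4 and CCl4_PTH livers and rose by 3.28 ± 0.26 SE on the log2 scale in CCl4 livers (edgeR adjusted p = 3.50e-08). Unc5b, a netrin receptor of tip cells, rose by 1.93 ± 0.16 SE (adjusted p = 5.94e-08). In CCl4_PTH against CCl4 livers 0 were higher and 4 lower: Dusp5, a phosphatase of ERK (−1.71 ± 0.38 SE, edgeR adjusted p = 0.00790), Nr4a1 (−1.23), Rcan1, an inhibitor of calcineurin (−0.89 ± 0.13 SE, adjusted p = 0.000634), and Cxcr4 (−0.85 ± 0.23 SE, adjusted p = 0.0220). Rcan1 had medians of 5.62 CPM in control, 12.1 CPM in CCl4 and 6.92 CPM in CCl4_PTH livers. In CCl4_PTH against control livers 8 were higher and 0 lower. Within the same list, Dll4 had a mean of 2.77 CPM in CCl4 against 3.39 CPM in control livers. Apln was at 0 in 5 control libraries, and Aplnr did not pass the filter. The part of leukocyte RNA in the values of this list was not tested.

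Of 22 hypoxia sensors and targets, the gene group that includes regulators of Vegfa, 6 were called higher and 6 lower in CCl4 livers, with a median log2 fold change of −0.02. Over all genes tested the shares were 26.3% and 21.2%, so these counts are near the background and are no result about the list. The glycolytic genes Pfkfb4 and Hk2 rose by 3.03 ± 0.29 SE and 2.72 ± 0.35 SE on the log2 scale (edgeR adjusted p = 2.28e-07 and 6.65e-06), and Car9, Ddit4, P4ha1 and Ndrg1 were also higher. Those called lower were Pdk1, Bnip3, Egln2, Epas1, Hif1an and Egln1. Epas1, which encodes a hypoxia-inducible factor of endothelium and hepatocytes, fell by 0.54, from a median of 168.4 CPM in control to 113.2 CPM in CCl4 livers. In CCl4_PTH against CCl4 livers 0 were higher and 2 lower, Hk2 (−1.10 ± 0.33 SE, adjusted p = 0.0351) and Ndrg1 (−0.72 ± 0.21 SE, adjusted p = 0.0348), and against control 4 were higher and 3 lower.

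Of 15 tested angiogenesis inhibitors, 9 were called higher and 5 lower in CCl4 livers, with a median log2 fold change of 0.61. Thbs2, a thrombospondin, rose by 2.62 ± 0.23 SE on the log2 scale (edgeR adjusted p = 9.37e-08), from a median of 2.75 CPM to 16.3 CPM. Hhip, which binds hedgehog ligands, had 1841 counts over the 6 control libraries, 10 over those of CCl4 and 127 over those of CCl4_PTH (edgeR adjusted p = 8.25e-08 for the fall with CCl4 and 0.00634 for the higher level with Pien Tze Huang). Its mean was 4.83, 0.0212 and 0.193 CPM in the same order. The other 4 called lower were Cnmd, Spry4, Serpinf1 and Col18a1. In CCl4_PTH against CCl4 livers 4 were higher, Hhip, Hrg (0.89 ± 0.28 SE, adjusted p = 0.0410), Spry4 (0.81) and Col18a1 (0.53), and 1 was lower, Cnmd (−1.30), and against control 6 were higher and 2 lower.

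Within groups, the genes whose level followed each member most closely were found from the log2 CPM of 12178 protein-coding genes over 18 libraries, with group means subtracted. The libraries share scaling and sampling, so these correlations are descriptions. Kdr was followed most closely by Gsta4 (r = 0.96) and Inmt (r = 0.95), Vegfa by Apeh and Mtfp1 (both r = 0.91), Vegfb by Tom1l2 (r = 0.90) and Cyp27a1 (r = 0.88), and Flt1 by Atp6v1g1 and Tpd52 (both r = 0.90). Tek was followed by Clec4g and Nxpe4 (both r = 0.77), Flt4 by Gstm4 (r = 0.82) and Gpx4 (r = 0.75), Vegfc by Itm2c (r = 0.84) and Zfp668 (r = 0.82), Angpt2 by Rad18 (r = 0.82) and Vezf1 (r = 0.80), and Angpt1 by Trem2 (r = 0.80) and Cbx6 (r = 0.76). Pgf, at 0 counts in 9 of 18 libraries, was nearest to Rabepk (r = 0.86) and Rbm41 (r = 0.83). For Kdr and Vegfb the point farthest from its group mean was CCl4_PTH library 1. Over the 17 other libraries, the values of Kdr with Gsta4 and Inmt were r = 0.66 and 0.68, and those of Vegfb with Tom1l2 and Cyp27a1 were r = 0.85 and 0.78. Among the members themselves, Vegfb and Flt4 had r = 0.73 over all libraries and 0.76 without that one. Vegfb and Kdr had r = 0.75 and 0.45, and Kdr and Flt1 r = −0.63 and −0.41, so both of these values leaned on that library.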

How the data were processed

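Liver RNA was depleted of ribosomal RNA and sequenced on an Illumina HiSeq instrument, per the labels' protocols. Without giving roles, the submitters' processing notes list Bowtie2 2.5.1, StringTie 2.1.5, HISAT2 2.2.1, cutadapt 4.2 and FastQC 0.11.9, and the build GRCm38. The authors deposited estimated counts per gene, as whole numbers not scaled to depth. The counting tool, annotation and strand setting are not given in the sources used here. Rounding changed 0 counts.

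From these counts, 1 fit of edgeR 4.0.16 (in R 4.3.3; robust quasi-likelihood F test on 18 libraries in 3 groups, TMM factors, filterByExpr with minimum count 10) gave all 3 comparisons, with Benjamini-Hochberg adjustment over 21840 genes and a threshold of 0.05. An SE is approximate: the log2 fold change over the root of its F value. RPKM used the union of exons in GENCODE M21 (GRCm38), which matched 54723 of 54752 identifiers. The fit was tested on simulated data. Chi-square per gene was at least 50.8 in each of 45 pairs of libraries within groups, so none looked like a repeat deposit.

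The members and the gene lists were chosen with earlier results of these data known, and no list was tested as a set. Cd34, Plvap, Lyve1, Tie1 and Dcn each stand in 2 lists. Named list genes are the 2 smallest p-values per list in CCl4 against control and in CCl4_PTH against CCl4; others were named after their values were seen. For each member, the 2 genes most alike within groups are named (mean of at least 1 CPM). Alternatives were DESeq2 1.42.0 and limma 3.58.1 (voom with sample weights), other scalings and filters, a replicate block, 2 groups alone and each library left out. Shares, ratios and correlations without CCl4_PTH library 1 were added after the data were seen. Of the lists, platelet and megakaryocyte markers gave 4 of 5 tested called higher in CCl4 against control livers, 0 of 5 in CCl4_PTH against CCl4 and 2 of 5 in CCl4_PTH against control.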

Additional observations from a re-analysis of the deposited data

Results flagged for a closer look

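Of 36 groups of 6 libraries (10 members and 2 ratios in 3 groups), 7 had 1 library far from the other 5. For normally distributed, independent values chance gives about 1 in 20. That rate does not hold strictly here, since the ratios reuse values of the members. The flag of Pgf in control livers was also fixed by its 5 libraries at 0. In CCl4_PTH library 1, Kdr was 25.9 CPM (others 60.5 to 74.8), Flt1 20.2 CPM (13.3 to 15.3), the Kdr to Flt1 ratio of RPKM 1.91 (5.93 to 7.31) and Pgf 0.392 CPM (0 to 0.133); these 4 values share 1 library and are not independent. Vegfa was 107.9 CPM in control library 1 (others 87.0 to 93.7), and Pgf was 0.0579 CPM there, from 5 counts, with 0 in the others. The Angpt2 to Angpt1 ratio was 4.41 in CCl4_PTH library 6 (others 1.87 to 2.79). No cause was tested.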

How the results depend on the processing

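With library sizes alone, 7 members were called higher and 1 lower in CCl4 against control, 0 higher in CCl4_PTH against CCl4, and 7 higher and 0 lower in CCl4_PTH against control; log2 fold changes turned sign for Flt4 in CCl4 against control (0.51), Pgf, Flt1 and Tek in CCl4_PTH against CCl4 (−0.0048, −0.035 and −0.051) and Kdr in CCl4_PTH against control (0.24). DESeq2 called 2 lower in CCl4_PTH against control. Voom with sample weights called 2 higher in CCl4_PTH against CCl4 and gave Pgf −0.61 there. The fit of 2 groups alone called 0 higher in CCl4_PTH against CCl4. Without ribosomal RNA loci, Flt1 in CCl4 against control was −0.011.

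Samples share only a number: over 13 same-numbered pairs the correlation of deviations ran from −0.209 to 0.0833, and 0 of them matched best. With the replicate number as a block, 0 members were called higher in CCl4_PTH against CCl4 and 1 in CCl4_PTH against control, and Pgf and Tek in CCl4_PTH against CCl4 were −0.35 and −0.069. Calls lost there were Vegfb in CCl4 against control (adjusted p = 0.0587), Vegfa in CCl4_PTH against CCl4 (0.25), and Vegfc (0.0730) and Angpt2 (0.0853) in CCl4_PTH against control. Over all genes that fit called 42 higher and 42 lower in CCl4_PTH against CCl4, against 2632 in either direction without it.

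With each library left out in turn, 2 to 4 members were called higher in CCl4 against control, 0 to 2 higher in CCl4_PTH against CCl4, and 1 to 2 lower in CCl4_PTH against control (2 without control library 3, where Vegfb passed). Log2 fold changes ran from −0.058 to 0.058 for Flt1 in CCl4 against control and −0.0038 to 0.14 in CCl4_PTH against control, from −0.023 to 0.043 for Flt4 in CCl4_PTH against control, and in CCl4_PTH against CCl4 from −0.82 to 0.55 for Pgf and −0.044 to 0.13 for Tek. Counts under 100 limit Pgf, and all results rest on 6 mice a group. Angpt1 was also low in counts, with 18 to 65 per control library and 40 to 149 per CCl4 library.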
